A study of Homo sapiens with 12 samples.

Results

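The 10 genes described here are TSC1, TSC2, DDIT4, SESN1, SESN2, SESN3, DEPTOR, RHEB, RPTOR and RICTOR. RPTOR and RICTOR encode scaffolds of the mTOR complexes, RHEB an activator of mTORC1, and the others proteins that restrain mTORC1. MTOR, the kinase itself, is not a member. The 10 genes were taken by gene symbol from a deposited table of read counts that lists 60591 genes. All 10 were among the 19108 genes that passed the filter on low counts. mRNA was measured in PC9 and H1650, established lines from human non-small cell lung cancer that both carry an activating deletion in EGFR and were otherwise labelled wild-type. The 6 groups, with 2 libraries each, were PC9 and H1650 cells in 0.1% DMSO at 0 h (T0), and cells of either line exposed for 36 h to 10 μM erlotinib or to 0.1 μM osimertinib. Erlotinib is a first-generation inhibitor that binds EGFR reversibly, and osimertinib is a third-generation inhibitor that binds it covalently. Each line is a single established culture, the doses of the drugs differ, and DMSO cells were not profiled at 36 h in the libraries used here, so a change with drug and a change with time after T0 cannot be told apart.

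mTORC1 is a kinase complex that promotes protein synthesis and cell growth when growth factors, amino acids and energy are sufficient. Raptor, encoded by RPTOR, brings substrates to mTORC1, whereas RICTOR defines mTORC2, which phosphorylates AKT. RHEB is the small GTPase that switches mTORC1 on at the lysosome, and the TSC1-TSC2 complex switches RHEB off. DDIT4 (also called REDD1) acts through the TSC complex, sestrins act on the amino acid-sensing branch through GATOR2, and DEPTOR binds mTOR itself. These proteins are controlled to a large degree after transcription, and the measurements here are of mRNA alone.

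All 10 are protein-coding genes whose exonic reads were counted, and their positions in GENCODE 29 (GRCh38) are chr9:132891348-132946874 for TSC1, chr16:2047465-2089487 for TSC2, chr10:72273920-72276036 for DDIT4, chr7:151466012-151520120 for RHEB, chr17:80544819-80966371 for RPTOR and chr5:38937919-39074408 for RICTOR. The sestrin genes SESN1, SESN2 and SESN3 lie at chr6:108986437-109094819, chr1:28259527-28282491 and chr11:95165513-95232541. Between 17961765 and 26346187 reads per library were assigned to genes, and mitochondrial genes took 4.37% to 7.20% of them. That share moved with treatment: in PC9 it was 5.17% and 4.54% at T0 and 6.32% to 7.20% in the treated libraries, and in H1650 4.37% and 5.36% at T0 and 5.77% to 6.61% after treatment, so every treated library lay above both T0 libraries of its line. Its part in the drug comparisons below was not tested. At these depths a count of 0 would allow up to 3 reads, which is 0.116 to 0.168 normalized CPM (counts scaled by effective library size), a limit that covers counting error only. Epithelial markers were high in all 12 libraries, with KRT8 between 2067 and 4280 normalized CPM and EPCAM between 199 and 541. PTPRC and CD3E, markers of leukocytes and T cells, had at most 5 and 4 reads in any library. CD68 had at most 11 reads, PECAM1 32 and VWF 48, whereas COL1A1, a collagen gene, had 214 to 968. In these bulk samples, a smaller share of cells with a transcript and less of it per cell cannot be told apart.

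The 10 mRNAs spanned a wide range at T0. Per kilobase of exon, RHEB led in PC9 at 56.8 ± 0.220 normalized CPM (mean ± SD, n = 2 here and below), followed by DDIT4 at 12.1 ± 0.885 and RPTOR at 8.20 ± 0.193. SESN3 was lowest at 0.0496 ± 0.0107, and DEPTOR came next at 0.304 ± 0.00454. The ranges of neighbours in the PC9 order overlapped only for RICTOR and SESN2. In H1650 at T0, RHEB (39.9 ± 0.642) and DDIT4 (39.2 ± 5.06) overlapped at the top of the order, as did TSC2 with SESN2, and DEPTOR with SESN1 near its foot. The order depends on the gene length used: with the longest annotated transcript in place of the deposited length, 5 of the 10 genes kept their place in PC9 at T0, RHEB and SESN3 among them.

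**Figure D1:**
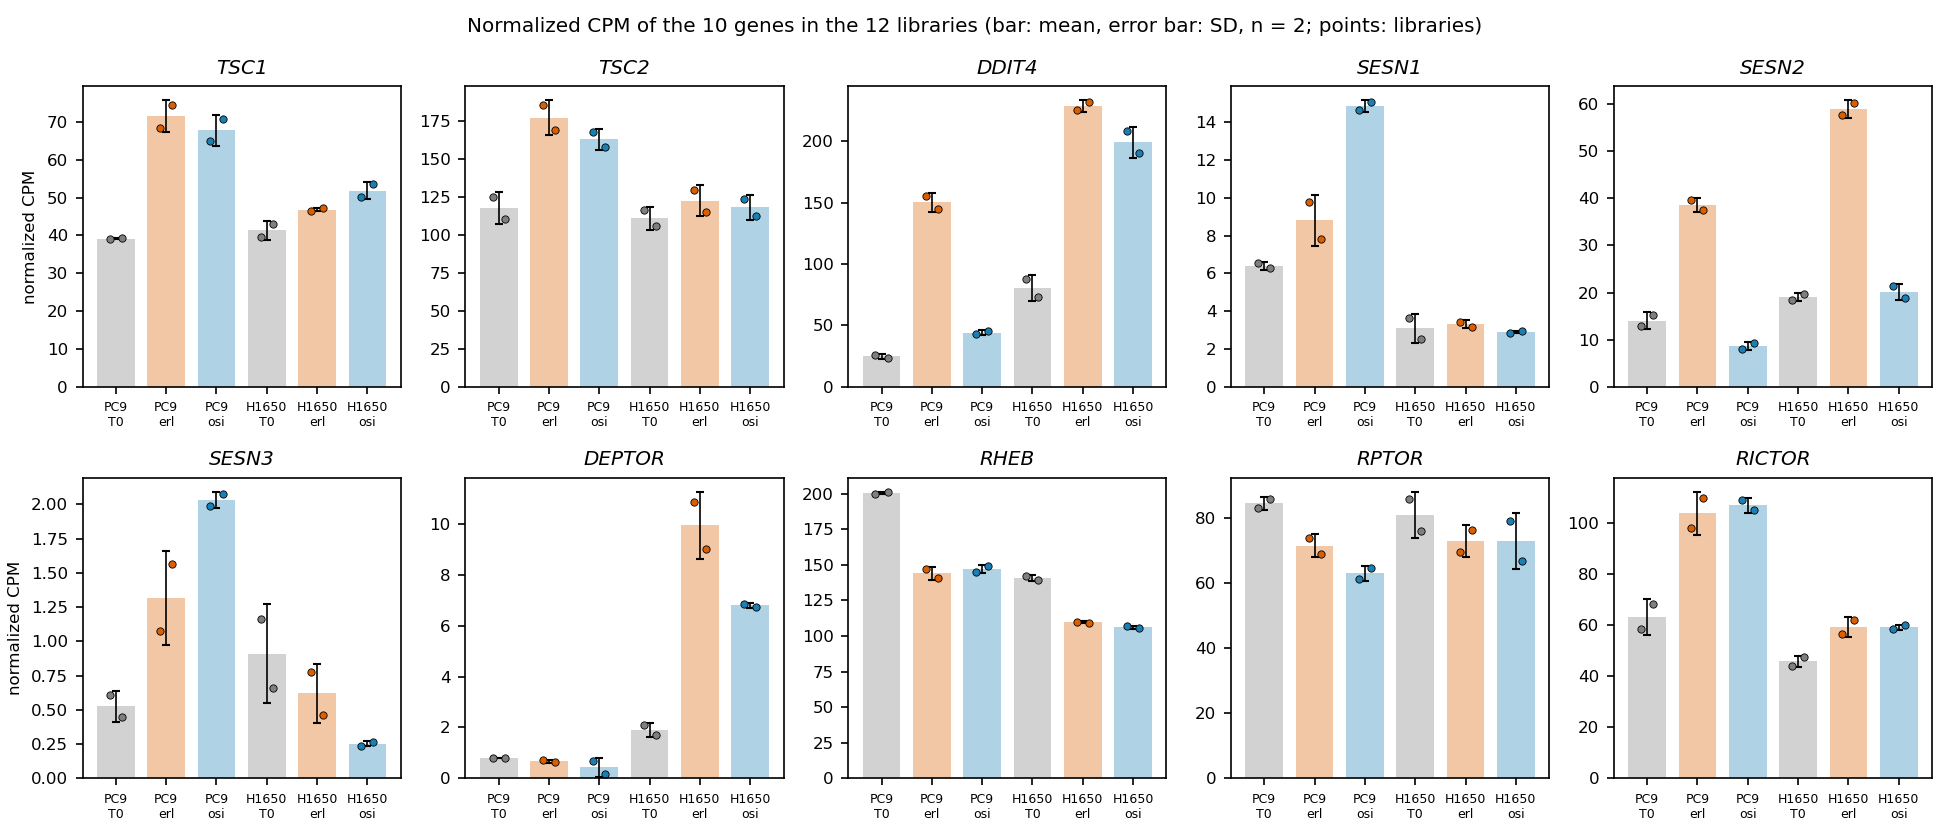
Normalized CPM of each gene (vertical axes, linear, each from 0) in the 6 groups, with T0 in grey, erlotinib (erl) in orange and osimertinib (osi) in blue; bars are means of 2 libraries, error bars SDs and points single libraries. DDIT4 rises from a mean of 24.9 to 150 in PC9 with erlotinib and to 44.1 with osimertinib, while in H1650 it starts at 80.5 and reaches 229 and 199.

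The lines already differed before any drug. At T0, 3 of the 10 genes were higher in H1650 and 3 were higher in PC9, in a comparison where 35.8% of all tested genes were called higher in H1650 and 33.8% lower (edgeR quasi-likelihood test, Benjamini-Hochberg adjusted p under 0.05 over all 19108 genes, as in every comparison below). DDIT4 was 3.23-fold higher in H1650 (log2 difference 1.69 ± 0.0939 SE, adjusted p = 3.04e-15), SESN2 1.36-fold (0.44 ± 0.115, adjusted p = 0.00130) and DEPTOR 2.35-fold (1.24 ± 0.354, adjusted p = 0.00305). The SESN2 call was lost without the first PC9 T0 library, at 0.32 (adjusted p = 0.0539). SESN1 was 2.09-fold higher in PC9 (adjusted p = 3.64e-05), RHEB 1.42-fold (adjusted p = 2.04e-07) and RICTOR 1.38-fold (adjusted p = 3.57e-05). TSC1, TSC2, RPTOR and SESN3 did not pass, with log2 differences of 0.08, -0.09, -0.06 and 0.77.

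Cells after 36 h with erlotinib or osimertinib were then each compared with T0 in the same line, where drug and time cannot be told apart. In PC9, 7 members rose and 2 fell with erlotinib, and 6 rose and 3 fell with osimertinib. Over all tested genes, 32.7% were called higher and 29.1% lower with erlotinib, and 32.7% and 28.7% with osimertinib. In H1650, 4 members rose and 1 fell with erlotinib, beside 18.0% higher and 18.5% lower over all genes, and 4 rose and 2 fell with osimertinib, beside 17.8% and 17.9%. The median log2 fold change of the 10 genes was 0.65 and 0.61 in PC9 with erlotinib and osimertinib, against 0.07 and 0.06 over all genes, and 0.16 and 0.08 in H1650, against 0.01 and 0.00. Both drugs share the T0 libraries of a line, so the changes with each drug are given side by side.

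**Figure D2:**
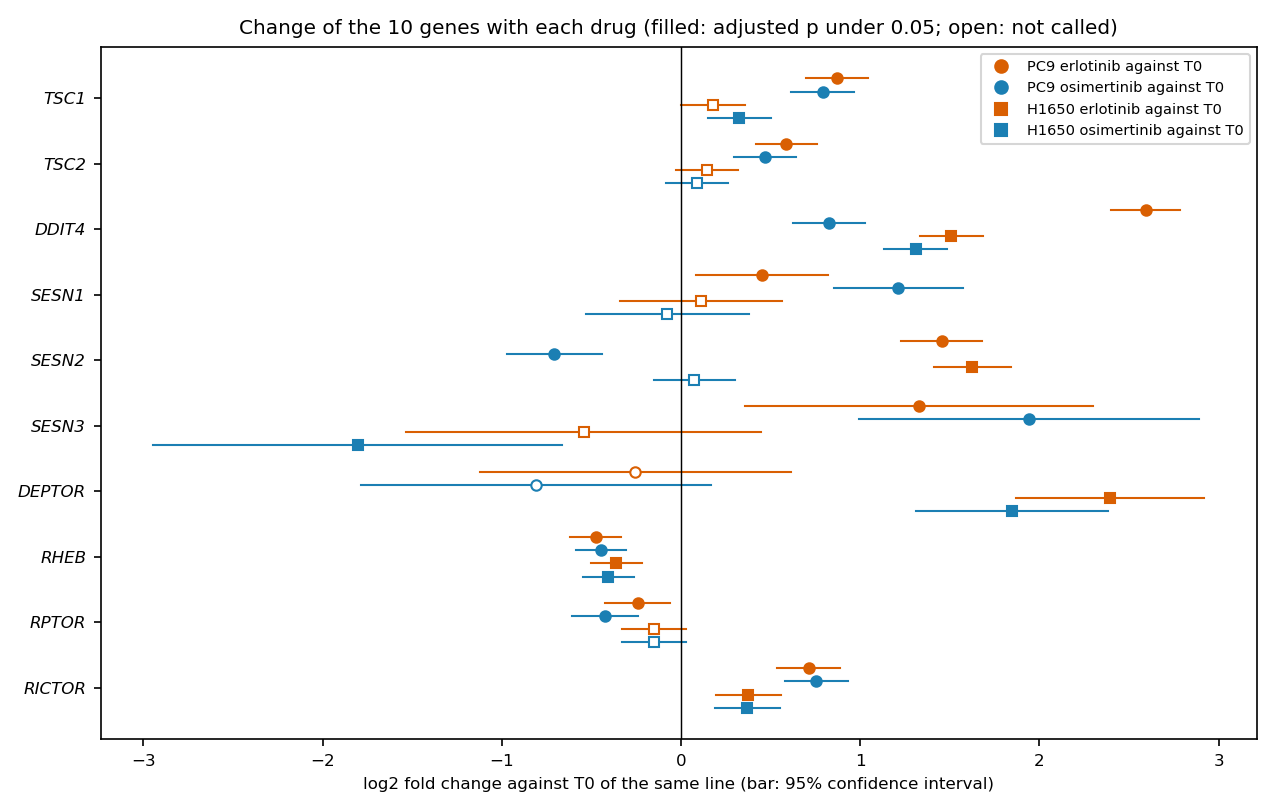
Log2 fold change against T0 of the same line (horizontal axis) with 95% confidence intervals for the 10 genes, by drug (colour) and line (circles PC9, squares H1650); filled symbols passed an adjusted p of 0.05. RHEB lies left of 0 and RICTOR right of 0 in all 4 comparisons, whereas SESN2 is at 1.45 and 1.63 with erlotinib and at -0.71 and 0.07 with osimertinib.

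DDIT4 is a stress-induced gene that is transcribed in response to hypoxia, DNA damage, glucocorticoids and the integrated stress response. In PC9 its read counts were 519 and 478 at T0, 3477 and 3707 with erlotinib, and 924 and 812 with osimertinib. In H1650 they were 1883 and 1895 at T0, 4365 and 4984 with erlotinib, and 4360 and 4269 with osimertinib. Every treated library thus lay above both T0 libraries of its line, and in PC9 the erlotinib libraries stood well apart from the osimertinib libraries. The fold change was 6.04 in PC9 with erlotinib (log2 2.59 ± 0.0937, adjusted p = 2.77e-19) and 1.77 with osimertinib (0.83 ± 0.0969, adjusted p = 2.10e-08). In H1650 it was 2.84 (1.51 ± 0.0849, adjusted p = 6.86e-14) and 2.48 (1.31 ± 0.0847, adjusted p = 1.59e-12). The call held under all alternatives in each of these 4 comparisons. DDIT4-AS1, whose exons overlap those of DDIT4 by 847 bases on the opposite strand, had 0 reads in every library, which allows up to 3 reads.

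SESN2 encodes a leucine-binding sestrin and is another target of the integrated stress response. Its counts in PC9 were 254 and 310 at T0, 884 and 961 with erlotinib, and 175 and 164 with osimertinib. In H1650 they were 396 and 510 at T0, 1116 and 1294 with erlotinib, and 447 and 424 with osimertinib. SESN2 therefore rose with erlotinib in both lines, whereas with osimertinib it fell in PC9, and in H1650 the osimertinib and T0 libraries overlapped. With erlotinib the fold change was 2.74 in PC9 (log2 1.45 ± 0.110, adjusted p = 3.52e-12) and 3.09 in H1650 (1.63 ± 0.104, adjusted p = 1.17e-12). With osimertinib SESN2 was 1.63-fold lower in PC9 (-0.71 ± 0.128, adjusted p = 2.44e-05), and the H1650 value was 0.07 with a 95% interval of -0.15 to 0.30 (adjusted p = 0.657).

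Because DDIT4 and SESN2 moved together with erlotinib, their promoters are shown, each covering 250 bases before to 50 bases after a RefSeq transcription start (GRCh38.p14), 5′ to 3′ on the strand of the gene. That of TSC2 is added as the only one among 12 promoters of 9 members with a match to the ATF4-type element. Capitals mark matches, on either strand, to 4 of 5 motifs searched: TGATGNAA (the ATF4-type element), CACGTG (the E-box), ACGTG (the core of the hypoxia element, contained in the E-box) and CCAAT, read as ATTGG on the other strand. The DDIT4 promoter lies at chr10:72273674-72273973, the SESN2 promoter at chr1:28259268-28259567 and the TSC2 promoter at chr16:2047735-2048034, all on the plus strand.
DDIT4: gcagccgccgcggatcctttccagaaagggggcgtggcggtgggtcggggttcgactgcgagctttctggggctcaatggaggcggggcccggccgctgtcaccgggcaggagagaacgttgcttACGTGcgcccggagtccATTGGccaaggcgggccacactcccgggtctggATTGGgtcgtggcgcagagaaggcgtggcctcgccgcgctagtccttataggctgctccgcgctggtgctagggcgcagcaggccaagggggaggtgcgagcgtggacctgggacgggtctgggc
SESN2: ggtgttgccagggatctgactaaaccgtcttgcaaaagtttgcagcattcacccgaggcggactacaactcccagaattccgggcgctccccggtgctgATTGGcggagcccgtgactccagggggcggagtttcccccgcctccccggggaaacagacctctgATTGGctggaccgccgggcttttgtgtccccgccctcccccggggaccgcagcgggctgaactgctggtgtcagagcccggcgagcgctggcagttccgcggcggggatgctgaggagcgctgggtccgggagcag
TSC2: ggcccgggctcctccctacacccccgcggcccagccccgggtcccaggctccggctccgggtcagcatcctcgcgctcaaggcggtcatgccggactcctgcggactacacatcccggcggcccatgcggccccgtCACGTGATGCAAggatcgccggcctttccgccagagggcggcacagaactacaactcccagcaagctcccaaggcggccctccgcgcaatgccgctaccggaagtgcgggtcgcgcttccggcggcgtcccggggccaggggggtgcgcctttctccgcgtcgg

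DDIT4 held 1 ACGTG, starting 125 bases before the transcription start, and CCAAT matches at 108 and 75 bases. SESN2 held CCAAT matches at 151 and 86 bases and none of the other motifs. In TSC2 the E-box began 114 bases before the start and overlapped the ATF4-type element at 110 bases. Among 35116 promoters of the same length, 3.62% held TGATGNAA, 7.26% CACGTG, 21.4% ACGTG and 34.6% CCAAT, and 10.8% held at least 2 CCAAT matches. GTAAACA, the FOXO-type element, was searched as well, occurred in 3.42% of promoters and matched none of the 12. A match is a run of letters and not a measured binding site, and these windows leave out elements farther from the start.

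SESN1, a p53- and FOXO-responsive sestrin, had the opposite preference between the drugs in PC9. It had 130 and 127 reads at T0, 218 and 201 with erlotinib, and 317 and 269 with osimertinib. In H1650 all 6 libraries lay between 60 and 78 reads. The osimertinib libraries of PC9 were the highest of the 12, and in H1650 the libraries of each drug overlapped T0. SESN1 rose 2.32-fold with osimertinib in PC9 (log2 1.21 ± 0.175, adjusted p = 7.84e-07), and the H1650 values were 0.11 ± 0.219 with erlotinib (adjusted p = 0.745) and -0.08 ± 0.222 with osimertinib (adjusted p = 0.837). The smaller rise with erlotinib in PC9 (0.45 ± 0.179, adjusted p = 0.0298) was lost in DESeq2 (adjusted p = 0.131), without the filter (adjusted p = 0.0962), and without the first erlotinib library, at 0.29, or either T0 library of PC9, at 0.48 and 0.42.

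SESN3, a FOXO-responsive sestrin, was near the lower limit of measurement, with 5 to 43 reads. In PC9 it had 12 and 9 reads at T0, 24 and 40 with erlotinib, and 43 and 37 with osimertinib. In H1650 it had 25 and 17 at T0, 15 and 10 with erlotinib, and 5 and 6 with osimertinib. By normalized CPM, the treated libraries of PC9 lay above T0. In H1650 the osimertinib libraries lay below T0, while the erlotinib libraries (0.774 and 0.466) overlapped T0 (1.17 and 0.656). SESN3 rose 3.84-fold with osimertinib in PC9 (1.94 ± 0.461, adjusted p = 6.07e-04), a call that every fit without 1 library retained. Its rise with erlotinib (1.33 ± 0.473, adjusted p = 0.0165) was lost in DESeq2 (adjusted p = 0.0793), without the second T0 library (1.12) and without the second erlotinib library (1.03) of PC9. The fall with osimertinib in H1650 (-1.80 ± 0.556, adjusted p = 0.0117) was lost without the first T0 library (-1.35) or either osimertinib library (-1.73 and -1.89). With erlotinib the H1650 value was -0.54 ± 0.482 (adjusted p = 0.412). An antisense transcript, AP000787.1, with 3 to 21 reads, shares 93 exonic bases with SESN3, and whether the counting used strand is not given in the sources used here.

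These opposite movements changed the make-up of sestrin mRNA. On the per-kilobase scale, SESN2 made up 73.5% and 77.7% of the 3 sestrins in PC9 at T0, 85.1% and 86.6% with erlotinib, and 43.4% and 45.8% with osimertinib. SESN1 took 25.4% and 21.5% at T0 and 53.1% and 50.8% with osimertinib, so it exceeded SESN2 in both osimertinib libraries of PC9 and in no other library. In H1650, SESN2 was between 86.7% and 96.3% in all 6 libraries. The summed sestrin level in PC9 was 5.04 and 5.69 at T0, 13.4 and 12.5 with erlotinib, and 5.39 and 5.80 with osimertinib. With osimertinib the sum thus lay near T0 in PC9 while its composition differed. These shares were not tested and rest on the deposited gene lengths.

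**Figure D3:**
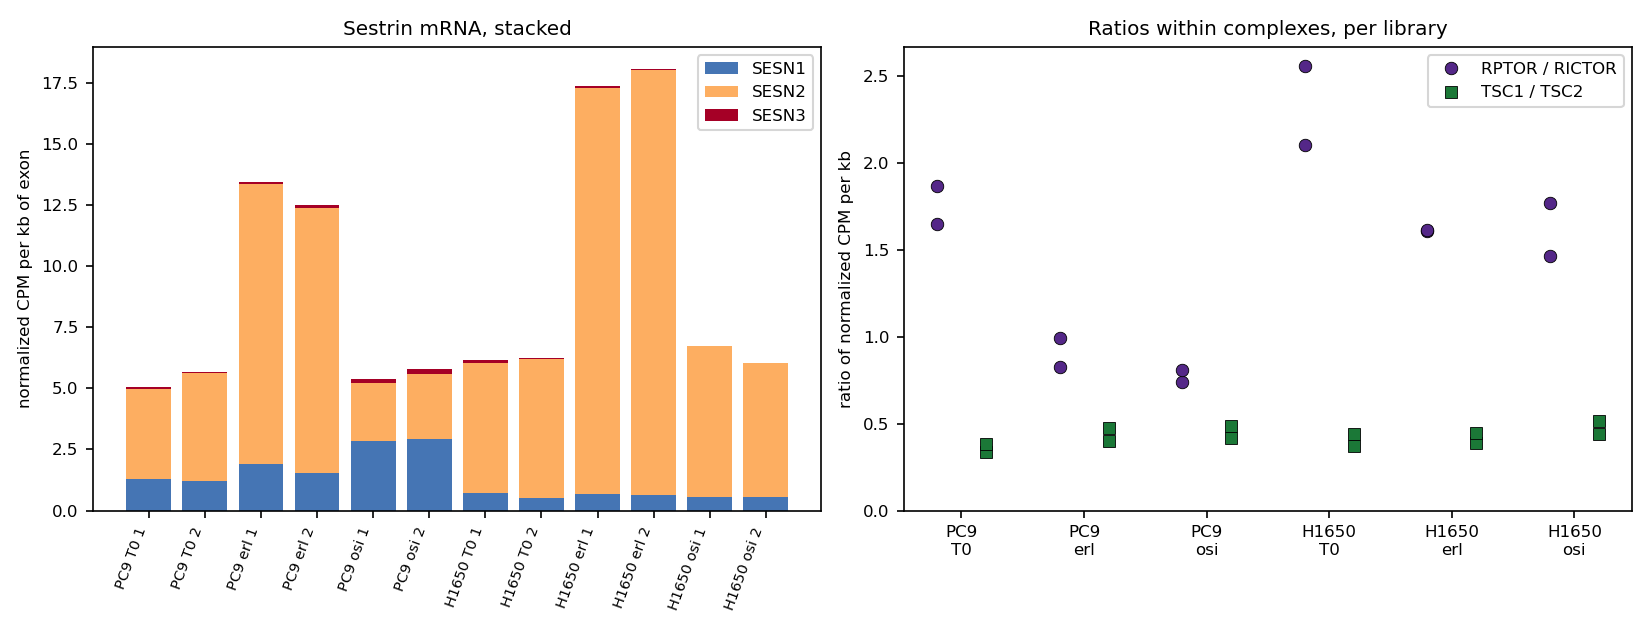
Left, normalized CPM per kilobase of SESN1, SESN2 and SESN3, stacked, in each library (erl, erlotinib; osi, osimertinib); right, ratios per library of RPTOR to RICTOR and of TSC1 to TSC2 on the same scale. The sestrin sum is highest with erlotinib, up to 18.1 in H1650, and SESN1 exceeds SESN2 only in the osimertinib libraries of PC9. On the deposited gene lengths, the RPTOR to RICTOR ratio is below 1 in the 4 treated libraries of PC9.

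DEPTOR, the inhibitor that binds mTOR directly (chr8:119873717-120050913), responded in H1650. It had 45 and 44 reads at T0, 211 and 194 with erlotinib, and 144 and 151 with osimertinib, with no overlap between the groups. In PC9 it had 16 reads in each T0 and each erlotinib library, and 15 and 3 with osimertinib, the last at the limit of 3 reads. DEPTOR rose 5.26-fold with erlotinib in H1650 (log2 2.39 ± 0.256, adjusted p = 2.02e-08) and 3.59-fold with osimertinib (1.85 ± 0.261, adjusted p = 2.09e-06). The PC9 values were -0.25 (95% interval -1.12 to 0.61, adjusted p = 0.627) and -0.81 (-1.78 to 0.16, adjusted p = 0.143). The osimertinib value in PC9 was decided by single libraries, since it became -2.21 (adjusted p = 0.00935) without the first osimertinib library and -0.20 without the second. The long noncoding AP005717.1, whose exons overlap those of DEPTOR by 252 bases on the opposite strand, had at most 5 reads.

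The TSC complex rose mainly in PC9. TSC1 (hamartin) had 774 and 794 reads at T0 in PC9, 1529 and 1907 with erlotinib, and 1402 and 1260 with osimertinib. TSC2 (tuberin), which carries the GTPase-activating domain that acts on RHEB, had 2486 and 2242 at T0, 4141 and 4336 with erlotinib, and 3636 and 2822 with osimertinib. For both genes every treated library lay above both T0 libraries. TSC1 rose 1.83-fold with erlotinib (log2 0.87 ± 0.0849, adjusted p = 6.52e-10) and 1.73-fold with osimertinib (0.79 ± 0.0857, adjusted p = 4.73e-09). TSC2 rose 1.50-fold (0.59 ± 0.0836, adjusted p = 6.29e-07) and 1.38-fold (0.47 ± 0.0840, adjusted p = 2.05e-05).

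In H1650 the TSC genes moved less. TSC1 had means of 41.3 ± 2.57 normalized CPM at T0, 46.8 ± 0.442 with erlotinib and 51.8 ± 2.32 with osimertinib, and TSC2 had 111 ± 7.56, 123 ± 10.3 and 118 ± 8.13. TSC1 rose 1.25-fold with osimertinib (0.33 ± 0.0850, adjusted p = 0.00327), a call lost without the first T0 library (0.27) or the second osimertinib library (0.28). With erlotinib TSC1 was 0.18 ± 0.0858 (adjusted p = 0.109), and it passed with the replicate number as a block (adjusted p = 0.0297). TSC2 was 0.14 ± 0.0842 with erlotinib (adjusted p = 0.199) and 0.09 ± 0.0841 with osimertinib (adjusted p = 0.440). The ratio of TSC1 to TSC2 per kilobase stayed between 0.338 and 0.516 over the 12 libraries. Exons of TSC2 share 778 bases with PKD1 and 402 with NTHL1 on the opposite strand, which had 1394 to 3759 and 156 to 605 reads, and their part in the TSC2 counts was not tested.

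RHEB fell in both lines with both drugs. It had 3968 and 4075 reads in PC9 at T0, 3291 and 3611 with erlotinib, and 3141 and 2664 with osimertinib. In H1650 it had 3056 and 3611 at T0, 2135 and 2348 with erlotinib, and 2242 and 2370 with osimertinib. Every treated library lay below both T0 libraries of its line. RHEB was 1.39-fold and 1.36-fold lower in PC9 with erlotinib and osimertinib (log2 -0.48 ± 0.0684 and -0.45 ± 0.0687, adjusted p = 7.42e-07 and 2.20e-06) and 1.28-fold and 1.33-fold lower in H1650 (-0.36 ± 0.0694 and -0.41 ± 0.0694, adjusted p = 1.38e-04 and 3.11e-05). The 4 calls held under every alternative. The annotation names 3 pseudogenes of RHEB, between which and RHEB reads could be split.

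Set beside its inhibitors, RHEB mRNA was relatively lower after treatment. The ratios given here rest on the deposited gene lengths. Per kilobase, the ratio of RHEB to DDIT4 was 4.44 and 4.96 in PC9 at T0, 0.550 and 0.566 with erlotinib and 1.98 and 1.91 with osimertinib. In H1650 the ratio was 0.944 and 1.11 at T0 and between 0.274 and 0.323 in the treated libraries. DDIT4 thus stood above RHEB in all treated groups but PC9 with osimertinib, also with the longest annotated transcript. In H1650 the levels of DDIT4 and RHEB already overlapped at T0 on the deposited lengths. The ratio of RHEB to TSC2 was 8.64 and 9.84 in PC9 at T0 and 4.30 to 5.11 after treatment, and in H1650 it was 6.63 and 7.14 at T0 and 4.59 to 5.13 after treatment.

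The scaffolds that define the complexes diverged. RICTOR, of mTORC2, had 58.4 and 68.4 normalized CPM at T0 in PC9, 98.0 and 110 with erlotinib, and 109 and 105 with osimertinib. In H1650 it had 44.2 and 47.5, then 56.7 and 62.1, and 58.6 and 60.0. No treated library overlapped T0. RICTOR rose 1.64-fold and 1.69-fold in PC9 (0.71 ± 0.0857 and 0.76 ± 0.0862, adjusted p = 3.41e-08 and 1.24e-08) and 1.30-fold and 1.29-fold in H1650 (0.37 ± 0.0886 and 0.37 ± 0.0884, adjusted p = 0.00129 and 0.00142). OSMR, on the opposite strand, shares 229 exonic bases with RICTOR and had 1670 to 5101 reads, and its part in the RICTOR counts was not tested.

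RPTOR, of mTORC1, fell in PC9 with osimertinib. It had 83.1 and 85.9 normalized CPM at T0, 73.9 and 69.0 with erlotinib, and 61.4 and 64.6 with osimertinib. The osimertinib libraries were the lowest of PC9, and in H1650, where the mean went from 81.0 ± 7.04 at T0 to 72.9 ± 4.84 and 72.9 ± 8.71, the groups overlapped. RPTOR was 1.34-fold lower with osimertinib in PC9 (-0.42 ± 0.0888, adjusted p = 1.48e-04). The erlotinib value in PC9 (-0.24 ± 0.0875, adjusted p = 0.0181) lost its call with upper quartile scaling (-0.15), with at least 10 counts required in every library (-0.19, adjusted p = 0.0504), without the second T0 library (-0.22) and without the second erlotinib library (-0.20). The H1650 values were -0.15 with each drug (adjusted p = 0.195 and 0.189). Per kilobase, RPTOR to RICTOR was 1.87 and 1.65 in PC9 at T0 and 0.739 to 0.991 after treatment, and 2.56 and 2.11 in H1650 at T0 and 1.46 to 1.77 after treatment. These ratios depend on the gene length used. With the longest annotated transcript, RPTOR stood above RICTOR in PC9 with erlotinib and below it with osimertinib.

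Whether the response differed between the lines was tested by subtracting the log2 fold change of PC9 from that of H1650. With erlotinib 1 member was called higher and 5 lower in this comparison, beside 21.1% and 19.8% of all genes. With osimertinib 3 were higher and 5 lower, beside 21.5% and 20.5%. DEPTOR was the only gene higher with erlotinib (difference 2.65 ± 0.504, adjusted p = 9.12e-05), and its osimertinib difference was nearly the same (2.66 ± 0.541, adjusted p = 2.03e-04), with a range of 2.05 to 4.06 over the fits without 1 library. SESN3 showed the opposite sign (-1.87 ± 0.676, adjusted p = 0.0274, and -3.74 ± 0.721, adjusted p = 1.00e-04). Its erlotinib difference was lost in 4 of the fits without 1 library, namely the second T0 and erlotinib libraries of PC9, the first T0 and the second erlotinib library of H1650, at -1.41 to -1.67, and in DESeq2 (-1.89, adjusted p = 0.0901).

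The rise of TSC1 was smaller in H1650 than in PC9 with either drug (-0.69 ± 0.121, adjusted p = 2.92e-05, and -0.47 ± 0.121, adjusted p = 0.00241), and so was that of TSC2 (-0.45 ± 0.119, adjusted p = 0.00319, and -0.38 ± 0.119, adjusted p = 0.0114). RICTOR also rose less in H1650 (-0.34 ± 0.123, adjusted p = 0.0282, and -0.39 ± 0.123, adjusted p = 0.0127). The TSC2 call with osimertinib and both RICTOR calls were not stable: each was lost in 3 or 4 of the fits without 1 library, where TSC2 was between -0.29 and -0.33 and RICTOR between -0.23 and -0.35, and both RICTOR calls were lost without the filter. For TSC2 these left out the second T0 or first osimertinib library of PC9, or the first T0 or second osimertinib library of H1650. For RICTOR they left out the first T0 library of PC9 or the second T0 library of H1650 for either drug, the second erlotinib library of PC9 or the first of H1650 for erlotinib, and the first osimertinib library of H1650 for osimertinib. RHEB did not differ detectably between the lines (0.12, 95% interval -0.08 to 0.32, adjusted p = 0.376, with erlotinib, and 0.04, -0.16 to 0.24, adjusted p = 0.809, with osimertinib).

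DDIT4 changed sign between the drugs in this comparison. Its rise with erlotinib was smaller in H1650 (-1.09 ± 0.124, adjusted p = 3.82e-08), and its rise with osimertinib was larger there (0.48 ± 0.128, adjusted p = 0.00302). SESN2 differed between the lines with osimertinib (0.78 ± 0.169, adjusted p = 4.14e-04) and was 0.17 with erlotinib (95% interval -0.14 to 0.48, adjusted p = 0.404). SESN1 differed with osimertinib (-1.29 ± 0.283, adjusted p = 4.65e-04) and was -0.34 ± 0.284 with erlotinib (adjusted p = 0.366). RPTOR was 0.09 and 0.27 (adjusted p = 0.605 and 0.0812), and the second value passed with the replicate number as a block (adjusted p = 0.0237), without the filter (0.35), and without the first T0 library (0.38) or the second osimertinib library (0.41) of H1650.

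The drugs were also compared directly, at their different doses. In PC9, 1 member was higher with osimertinib than with erlotinib and 2 were lower, beside 10.1% and 6.41% of all genes. In H1650 1 was lower and the other 9 did not pass, where 5.02% of all genes were called higher and 3.73% lower. Without adjustment, SESN2, DDIT4, SESN3 and DEPTOR had p under 0.05 in H1650, all lower with osimertinib. SESN2 was the member lower in both lines, 4.47-fold in PC9 (-2.16 ± 0.118, adjusted p = 7.51e-14) and 2.93-fold in H1650 (-1.55 ± 0.105, adjusted p = 2.38e-11). DDIT4 was 3.41-fold lower with osimertinib in PC9 (-1.77 ± 0.0888, adjusted p = 1.12e-14), whereas in H1650 the difference was -0.20 (95% interval -0.37 to -0.03, adjusted p = 0.142, and 0.0246 with the replicate number as a block). SESN1 was 1.69-fold higher with osimertinib in PC9 (0.76 ± 0.167, adjusted p = 0.00167). For RHEB the difference between the drugs was 0.03 in PC9 (95% interval -0.11 to 0.17) and -0.05 in H1650 (-0.19 to 0.10).

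The difference between the drugs was itself compared between the lines, as H1650 minus PC9. There 2 members were higher and 1 was lower, beside 1.81% and 3.40% of all genes. DDIT4 gave 1.57 ± 0.120 (adjusted p = 1.35e-09), between 1.50 and 1.63 over the fits without 1 library. SESN2 gave 0.61 ± 0.158 (adjusted p = 0.0193) and SESN1 -0.95 ± 0.279 (adjusted p = 0.0446). The SESN2 call was lost without the first library of PC9 erlotinib (0.57), PC9 osimertinib (0.52), H1650 erlotinib (0.57) or H1650 osimertinib (0.52). The SESN1 call was lost in DESeq2 (adjusted p = 0.0972), with upper quartile scaling, without the filter, and in 7 of the 12 fits without 1 library, those without any treated library but the first of PC9 erlotinib, at -0.79 to -1.01.

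Beyond the 10 members, 9 lists of genes around the pathway were counted in the same fits, with no test of a list as a whole. The lists were written with results of these data known. A part of the factors they are named for in the changes of the members was not tested. They are to be read against all tested genes, of which 32.7% were called higher and 29.1% lower with erlotinib in PC9, 32.7% and 28.7% with osimertinib, 18.0% and 18.5% with erlotinib in H1650, and 17.8% and 17.9% with osimertinib, with medians of 0.07, 0.06, 0.01 and 0.00. Of the 11 further partners of the mTOR complexes, 8 were called lower with either drug in PC9 and the other 3 did not pass (median log2 fold change -0.52 and -0.71). In H1650 1 was higher and 4 lower with erlotinib, and 5 were lower with osimertinib while the other 6 did not pass. MTOR, the kinase of both complexes, fell in PC9 from 136 ± 3.64 normalized CPM at T0 to 77.2 ± 7.38 with erlotinib (-0.82 ± 0.0809, adjusted p = 8.34e-10) and 73.6 ± 1.82 with osimertinib (-0.89 ± 0.0817, adjusted p = 1.85e-10). TELO2, a chaperone partner that stabilizes kinases of the mTOR family, changed by -0.84 ± 0.102 and -1.13 ± 0.104 in PC9 (adjusted p = 3.95e-08 and 2.12e-10). In H1650 the MTOR values were -0.25 and -0.31 and the TELO2 values -0.33 and -0.30, all of which passed. The MTOR calls were lost without the first T0 library (-0.25) or the first erlotinib library (-0.17), and without the second osimertinib library (-0.25), of H1650. Those of TELO2 were lost without the first T0 library (-0.22 and -0.19), the second erlotinib library (-0.18) or the second osimertinib library (-0.22).

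**Figure D4:**
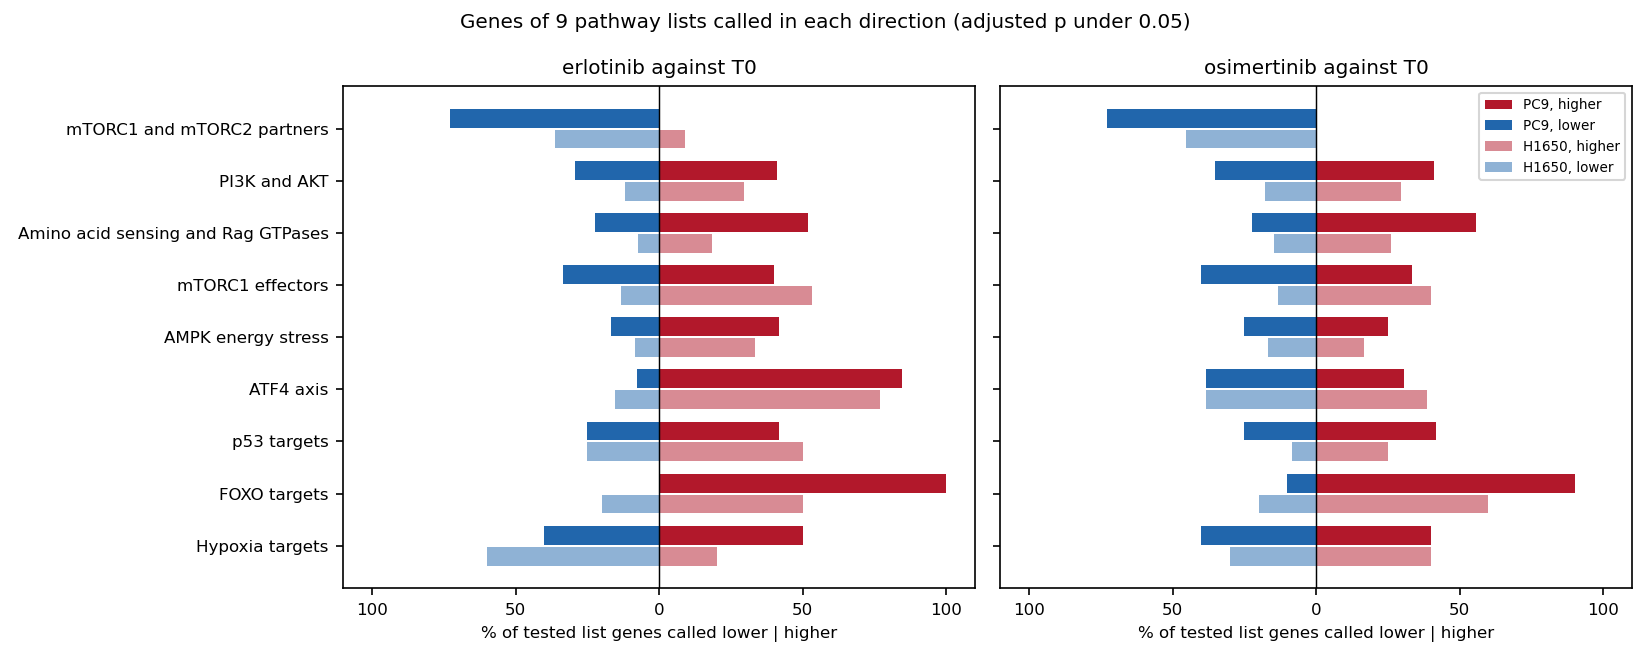
Share of the tested genes of 9 lists (horizontal axes, percent; lower to the left, higher to the right) called against T0 with erlotinib (left) and osimertinib (right) in PC9 (dark) and H1650 (light). ATF4 axis genes lie mostly on the higher side with erlotinib (11 of 13 in PC9, 10 of 13 in H1650) and on both sides with osimertinib (4 higher and 5 lower, and 5 and 5).

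The ATF4 axis list holds genes of the integrated stress response, the program to which DDIT4 and SESN2 also belong. Of its 13 genes, 11 rose and 1 fell with erlotinib in PC9, and 10 rose and 2 fell in H1650, with medians of 1.42 and 1.04. With osimertinib 4 rose and 5 fell in PC9, and 5 rose and 5 fell in H1650, with medians of -0.10 and -0.06. Directly compared, 10 of the 13 were lower with osimertinib than with erlotinib in each line, beside 6.41% of all genes in PC9 and 3.73% in H1650. PSAT1, an enzyme of serine synthesis, went from 155 ± 7.38 normalized CPM at T0 to 604 ± 21.8 with erlotinib and 20.6 ± 0.569 with osimertinib in PC9, and from 89.9 ± 0.789 to 547 ± 8.28 and 105 ± 4.66 in H1650. Its log2 difference between the drugs was -4.88 ± 0.0847 in PC9 (adjusted p = 3.00e-25) and -2.38 ± 0.0724 in H1650 (adjusted p = 7.37e-19). ATF3, a stress-induced transcription factor, did otherwise: it rose with both drugs in PC9 (3.54 ± 0.138 and 3.66 ± 0.138, adjusted p = 1.47e-18 and 6.86e-19) and fell with both in H1650 (-0.63 ± 0.0974 and -0.49 ± 0.0964, adjusted p = 7.80e-06 and 1.92e-04).

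FOXO transcription factors are active when AKT signaling is low, and SESN1, SESN3 and RICTOR are among the genes they are known to induce. All 10 genes of the FOXO list rose with erlotinib in PC9 (median 1.46), and 9 rose and 1 fell with osimertinib (median 1.64). In H1650 5 rose and 2 fell with erlotinib, and 6 and 2 with osimertinib. Whether FOXO factors had a part in these changes was not tested. CITED2, a transcriptional co-regulator, rose from 16.4 ± 2.40 to 189 ± 16.1 and 243 ± 5.07 normalized CPM in PC9 (3.53 ± 0.112 and 3.89 ± 0.113, adjusted p = 1.43e-20 and 2.13e-21). In H1650 it had 155 ± 21.0, 152 ± 11.8 and 184 ± 18.1. CCNG2, an atypical cyclin linked to cell cycle exit, rose in all 4 comparisons (2.31 and 2.58 in PC9, 0.85 and 1.18 in H1650, largest adjusted p = 6.38e-09).

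Among upstream PI3K and AKT genes, 7 of 17 rose in PC9 with each drug, 5 fell with erlotinib and 6 with osimertinib, shares not far from the 32.7% higher and 29.1% or 28.7% lower over all genes. In H1650 5 rose with each drug, and 2 and 3 fell. PIK3IP1, which restrains PI3K, had a mean of 0.948 ± 0.0847 normalized CPM in PC9 at T0, 58.5 ± 0.333 with erlotinib and 83.2 ± 4.87 with osimertinib (5.94 ± 0.153 and 6.45 ± 0.151, adjusted p = 2.46e-22 and 4.26e-23). In H1650 it had 1.81 ± 0.117, 2.57 ± 0.0137 and 3.41 ± 0.0940 (0.50, adjusted p = 0.0491, a call lost without any 1 of the 12 libraries, and 0.91, adjusted p = 2.76e-04). GAB1, an adaptor that links receptors to PI3K, rose by 1.21 ± 0.0925 and 1.65 ± 0.0923 in PC9 (adjusted p = 4.08e-12 and 4.78e-15).

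The amino acid-sensing list, which includes the GATOR complexes that sestrins act on, had 14 of 27 genes higher and 6 lower in PC9 with erlotinib, and 15 and 6 with osimertinib. In H1650 it had 5 and 2, and 7 and 4. CASTOR2, of the arginine-sensing CASTOR family, rose by 1.56 ± 0.106 and 1.91 ± 0.106 in PC9 (adjusted p = 3.58e-13 and 4.05e-15). FNIP2, a partner of folliculin, fell in PC9 from 8.37 ± 1.43 normalized CPM to 1.71 ± 0.491 and 2.63 ± 0.145 (-2.30 ± 0.203 and -1.67 ± 0.195, adjusted p = 8.20e-11 and 1.93e-08).

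Among 15 tested effectors of mTORC1, 6 rose and 5 fell with erlotinib in PC9, and 5 and 6 with osimertinib. In H1650 8 rose and 2 fell, and 6 and 2. PDCD4, an inhibitor of translation that is degraded after phosphorylation by S6 kinase, rose in all 4 comparisons (2.25 and 2.43 in PC9, 1.29 and 1.59 in H1650, largest adjusted p = 4.02e-12). ULK1, the kinase that starts autophagy and is inhibited by mTORC1, did so too (2.25 and 1.98 in PC9, 0.48 and 0.37 in H1650, largest adjusted p = 3.90e-04).

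Of 12 AMPK energy stress genes, 5 rose and 2 fell in PC9 with erlotinib, and 3 and 3 with osimertinib. In H1650 4 rose and 1 fell, and 2 and 2. TXNIP, a glucose-responsive inhibitor of thioredoxin, rose by 2.15 ± 0.0760 and 2.19 ± 0.0762 in PC9 (adjusted p = 1.69e-19 and 1.16e-19) and was 0.47 and -0.02 in H1650 (adjusted p = 3.70e-05 and 0.900). PRKAB2, a regulatory subunit of AMPK, fell in H1650 (-0.99 ± 0.0946 and -1.08 ± 0.0946, adjusted p = 2.65e-09 and 5.92e-10). In PC9 it was -0.18 and -0.28, of which the second passed (adjusted p = 0.0345) but was lost in DESeq2 (adjusted p = 0.0689), with upper quartile scaling (-0.20, adjusted p = 0.114), with at least 10 counts required in every library (-0.23, adjusted p = 0.0639), and without the second T0 library or either osimertinib library of PC9 (-0.22 to -0.30).

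The p53 and hypoxia lists cover other known inducers of sestrins and DDIT4. Of 12 p53 targets, 5 rose and 3 fell in PC9 with each drug, and in H1650 6 rose and 3 fell with erlotinib, and 3 and 1 with osimertinib. TP53INP1, a stress-induced regulator of apoptosis and autophagy, rose in PC9 from 0.300 ± 0.0750 normalized CPM to 40.1 ± 0.859 and 45.5 ± 0.244, and in H1650 from 8.85 ± 1.83 to 26.8 ± 1.90 and 28.3 ± 0.669 (smallest log2 fold change 1.59 ± 0.122, adjusted p = 4.00e-11). BBC3, which encodes the pro-apoptotic protein PUMA, rose in all 4 comparisons (2.68 and 2.34 in PC9, 1.58 and 1.49 in H1650, largest adjusted p = 1.28e-07).

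Of 10 hypoxia targets, 5 rose and 4 fell in PC9 with erlotinib, and 4 and 4 with osimertinib, beside 32.7% higher and 29.1% or 28.7% lower over all genes. In H1650 2 rose and 6 fell with erlotinib (median -0.75, against 0.01 over all genes), and 4 and 3 with osimertinib (median 0.16, against 0.00). NDRG1, a hypoxia-induced gene, rose in all 4 comparisons (1.95 and 1.85 in PC9, 0.39 and 0.55 in H1650, largest adjusted p = 3.25e-04). PDK1, a kinase that holds pyruvate back from the mitochondrion, fell in PC9 with both drugs (-2.12 ± 0.119 and -2.05 ± 0.122, adjusted p = 5.36e-15 and 1.56e-14), while in H1650 it was -0.85 with erlotinib (adjusted p = 4.07e-07) and 0.18 with osimertinib (adjusted p = 0.182).

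The genes whose 4 log2 fold changes lay nearest to those of a member were found by the root mean square difference over the 4 drug comparisons, among 10287 genes with a mean of at least 10 normalized CPM. For SESN2 they were WARS1 (0.245), GPT2 (0.257) and SLC1A4 (0.261), where the median gene was at 1.27. WARS1 encodes a tryptophanyl-tRNA synthetase, GPT2 an alanine transaminase and SLC1A4 a neutral amino acid transporter. For DDIT4 they were SLC6A9, a glycine transporter (0.341), APOL6 (0.486) and PLIN4 (0.513), against a median of 1.76. For SESN3 the nearest was GADD45A, a stress-induced growth arrest gene (0.354), followed by HTRA3 (0.513) and SYNE1 (0.524), against 1.60. For DEPTOR they were SRCIN1 (0.186), ESPN (0.190) and NNT-AS1 (0.300), against 1.67. DEPTOR had 3 to 16 reads in PC9, and its osimertinib value there ranged from -2.21 to -0.20 over the fits without 1 library. SESN3 had 5 to 43 reads in the 12 libraries, and its osimertinib value in H1650 ranged from -2.18 to -1.35 over those fits. The distances of DEPTOR and of SESN3 to the genes named for them therefore rest on few reads. The 4 comparisons share T0 libraries within a line, and this likeness is a description over 12 libraries.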

How the data were processed

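PolyA RNA of PC9 and H1650 cells was sequenced in 12 libraries, 2 biological replicates per group. The authors processed the reads in DolphinNext and deposited featureCounts counts per gene without normalization, with each gene's length. GRCh38 and DESeq2 are named in the submitters' processing notes, while the aligner, annotation and strandedness are not given in the sources used here. Gene positions and overlaps are those of GENCODE 29 on GRCh38, and promoters those of RefSeq, where 9 of the 10 members matched.

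The count model was fitted with edgeR 4.0.16 in R 4.3.3 (filter by group, TMM factors from 0.941 to 1.08, quasi-likelihood test on a model of the 6 groups over all 12 libraries, 6 residual and 20.7 prior degrees of freedom, biological coefficient of variation 0.0656). Adjusted p-values are Benjamini-Hochberg over 19108 genes, and the 41483 others were not tested. Normalized CPM use TMM library sizes. The SE is the log2 fold change divided by the root of the F statistic. PIK3R2 and EIF4EBP3 of the lists were not tested.

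Members and lists were chosen with earlier results of these data known. Named are all members, and from each list the 2 genes with the largest mean size of change over the 4 drug comparisons that were called at least once and had a mean of at least 10 normalized CPM, besides the 3 genes most like DDIT4, SESN2, SESN3 and DEPTOR and the cell type markers. Alternatives were DESeq2 1.42.0, RLE and upper quartile scaling, no filter, a minimum of 10 counts in each of the 12 libraries, an adjusted p of 0.01, each line alone, the replicate number as a block, and leaving out each library. The use of the longest transcript for the order of levels was chosen after seeing the data. Tested on simulated data for PC9 with erlotinib (19108 genes, of which 16394 passed the filter), 130 of the 170 tested genes with a simulated log2 change of 1 were recovered, with 5 false calls among 16224. All simulated libraries had the PC9 T0 profile and only 200 genes were changed. In the data 32.7% of genes were called higher and 29.1% lower, so these rates need not hold there. The genetic screen, viability and protein data were not analysed here.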

Additional observations from a re-analysis of the deposited data

Results flagged for a closer look

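The tests of a difference between the lines, given as H1650 minus PC9 in log2 units, passed for these members. For the change with erlotinib they were TSC1 (-0.69), TSC2 (-0.45), DDIT4 (-1.09), SESN3 (-1.87), DEPTOR (2.65) and RICTOR (-0.34). For the change with osimertinib they were TSC1 (-0.47), TSC2 (-0.38), DDIT4 (0.48), SESN1 (-1.29), SESN2 (0.78), SESN3 (-3.74), DEPTOR (2.66) and RICTOR (-0.39). For the difference between osimertinib and erlotinib they were DDIT4 (1.57), SESN1 (-0.95) and SESN2 (0.61). Over all tested genes, 21.1% were called higher and 19.8% lower for erlotinib, and 21.5% and 20.5% for osimertinib. For the difference between the drugs the shares were 1.81% and 3.40%. Without 1 library, calls were lost for SESN3 and RICTOR with erlotinib, TSC2 and RICTOR with osimertinib, and SESN1 and SESN2 between the drugs. SESN3 had 5 to 43 reads and DEPTOR 3 to 16 in PC9, so their differences rest on few reads.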

How the results depend on the processing

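Of 1200 values for the members from fits without 1 library, 1134 kept their direction and their side of the threshold, 39 lost their call, 3 gained one and 24 changed sign. Of 737 values under the other alternatives the counts were 701, 21, 6 and 9. The cause of these changes was not tested unless the alternative's own construction shows it, as where 1 sample fewer or a stricter threshold is used. With H1650 osimertinib against erlotinib, 2 members passed in place of 1 when each line was fitted on its own and with the replicate block. In the drug-to-drug difference by line, 1 member in place of 3 passed at an adjusted p of 0.01, and between 1 and 3 in the fits without 1 library, with 1 without the first library of PC9 osimertinib, H1650 erlotinib or H1650 osimertinib. List genes called there numbered 16 at an adjusted p of 0.01, and those called for H1650 osimertinib against erlotinib 23 to 40 without 1 library, the lowest without the first H1650 osimertinib library.

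Values near 0 that changed sign did not pass in any fit. RHEB in the osimertinib difference by line became -0.017 with upper quartile scaling. In H1650 osimertinib against erlotinib, RPTOR became 0.0079 in DESeq2, 0.0072 with RLE, 0.0036 with upper quartile scaling and 0.012 without the filter, and RICTOR 0.0054, 0.0051, 0.0031 and 0.010. Without 1 library, ranges that crossed 0 in H1650 against T0 were SESN1 with erlotinib (-0.14 to 0.37) and osimertinib (-0.33 to 0.19), SESN2 with osimertinib (-0.014 to 0.16), CITED2 with erlotinib (-0.17 to 0.11) and TXNIP with osimertinib (-0.081 to 0.049). Those of osimertinib against erlotinib were DEPTOR (-1.95 to 0.053), RHEB (-0.0012 to 0.062) and RICTOR (-0.038 to 0.13) in PC9, and TSC2 (-0.13 to 0.034), RPTOR (-0.13 to 0.12) and RICTOR (-0.069 to 0.073) in H1650. Those of the drug-to-drug difference by line were TSC2 (-0.012 to 0.15), DEPTOR (-0.60 to 1.41) and RICTOR (-0.13 to 0.036), and at T0 they were TSC2 (-0.18 to 0.00042) and RPTOR (-0.17 to 0.025).

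With the longest transcript, 5 members kept their place in the PC9 T0 order. The filter of 10 counts in every library dropped SESN3 and DEPTOR. The replicate block changed 3 member calls, all of them gained (TSC1 in H1650 with erlotinib, adjusted p = 0.0297; RPTOR in the osimertinib difference by line, 0.0237; DDIT4 in H1650 between the drugs, 0.0246). The labels give replicates 1 and 2 only. The difference of replicate 1 minus replicate 2 in each gene was correlated between groups. Over 15 pairs of groups the correlation was -0.019 to 0.454, with 12 of the 15 above 0.1. The library names place all replicate 1 libraries before all replicate 2 libraries, but no label ties a number to a shared day or batch. The other 3 pairs of groups were below 0.1. The block was therefore kept as an alternative, and its 3 gained calls are given beside those results. No scaling moved the median of all genes by more than 0.0907. Depth limits SESN3 in both lines and DEPTOR in PC9.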
